A study of Rattus norvegicus with 28 samples.

Results

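The genes described here are 38 cell cycle and DNA replication genes, read from bulk RNA-seq of INS-1, an insulin-secreting rat tumour line that stands in for pancreatic beta cells. They were chosen by name: each row of the deposited expression table whose symbol is on the list was taken, with the transcript of highest mean level where a symbol had several. All 38 were found among 17455 symbols, and all 38 had a mean of at least 1 TPM (a level corrected for transcript length and library size) over the 28 libraries, so all are among the 10275 genes tested. Mycn lay just inside that limit, at a mean of 1.02 TPM.

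Cells were either WT or carried Med14 S983A, a knock-in that replaces a serine of the Mediator subunit Med14 with alanine. Per the study's methods the knock-in lines were made by CRISPR knock-in and sorted as single-cell clones after puromycin selection. Untreated cells (CON) of each genotype were set beside cells given exendin-4 at 10 nM (Ex-4, which acts on the receptor for GLP-1) or forskolin at 10 µM (FSK, which switches on adenylyl cyclase without a receptor) for 1, 8 or 16 h. This gives 14 groups of 2 libraries. Cells had been washed into serum-free medium before treatment. The labels do not give the time that CON cells spent in it, so for the comparisons with CON an effect of 8 or 16 h of treatment and of time without serum cannot be told apart. A difference between the genotypes at CON and a difference between one clone and its parent population cannot be told apart either, and the labels do not name the knock-in line. The study's methods report biological replicates, and state that 2 independently made knock-in lines were used. The labels do not say whether the 2 libraries of a group came from separate cultures or lines. The p-values therefore measure the spread between these libraries.

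A dividing cell passes through G1, S, G2 and M phases. D-type cyclins with Cdk4 and E-type cyclins with Cdk2 free E2F factors, which turn on genes for DNA replication, and the later genes for mitosis are switched on through B-MYB and FoxM1 at promoters that carry a CHR element (a cell cycle genes homology region) and CCAAT boxes. CDK inhibitors such as p21 (Cdkn1a) and p27 (Cdkn1b) oppose this. Beta cells divide rarely in the adult, whereas insulinoma cells cycle in culture.

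The libraries held 42551133 to 92635979 fragments, and 27 of them held no more than 57231981. Replicates of a group differed by more than counting noise, and in each group the median member differed by 0.025 to 0.071 on the log2 scale between the 2 libraries. Med14 ranged from 17.2 to 25.9 TPM in WT and from 19.6 to 30.0 TPM in Med14 S983A libraries, a level that says nothing about the substitution. Beta cell genes were expressed in all libraries, from Ins1 (33716 to 67834 TPM) down to Nkx6-1 (13.2 to 67.7 TPM). Some varied widely, such as Slc2a2 (23.8 to 591 TPM). Among the non-endocrine genes checked, the highest was Cd68, at up to 1.75 TPM. The delta, PP and epsilon cell hormones Sst, Ppy and Ghrl and the leukocyte gene Ptprc stayed at or below 0.171 TPM. The alpha cell hormone Gcg did not: it lay between 165 and 1345 TPM in WT and between 6.09 and 113 TPM in Med14 S983A libraries, and was higher at 8 and 16 h in both. Its part in the results below was not tested. In such bulk samples, fewer cycling cells and less of a transcript per cycling cell cannot be told apart.

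Differences are given as log2(TPM + 1) with the standard error (SE) from limma across all genes, where a gene was called changed at a Benjamini-Hochberg adjusted p under 0.05 and a fold above 1.5. The share of all 10275 genes called in the same direction is given beside the counts of members. One hour of Ex-4 changed few members: 2 of 38 rose and 2 fell in WT (background 1.75% and 1.12%), and 1 rose and 1 fell in Med14 S983A (background 2.03% and 1.0%). At 8 h of Ex-4 the counts were 2 up and 2 down in WT (background 3.61% and 5.99%) and 1 up and 0 down in Med14 S983A (background 3.21% and 3.09%). By limma, 24 of 38 members in Med14 S983A at 8 h of Ex-4 passed the adjusted p alone, 9 higher and 15 lower. Of all 10275 genes, 2282 were higher and 2915 lower by that measure. With the fold limit, edgeR and DESeq2 on recovered fragments likewise called 1 member. At 16 h of Ex-4, 18 of 38 fell and 1 rose in WT (background 8.28% and 3.53%), and 22 fell and 1 rose in Med14 S983A (background 7.15% and 4.73%).

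FSK changed more members than Ex-4 at 8 h. In WT, 2 rose and 1 fell at 1 h (background 2.53% and 4.94%), 4 rose and 15 fell at 8 h (background 8.77% and 34.8%), and 4 rose and 25 fell at 16 h (background 10.3% and 24.1%). Med14 S983A cells gave 2 up and 2 down at 1 h (background 3.19% and 7.2%), 3 up and 9 down at 8 h (background 11.6% and 34.5%), and 4 up and 20 down at 16 h (background 12.2% and 21.1%). At 8 h of FSK the share of members that fell, 15 or 9 of 38, was near or under the background. At 16 h of either agent it was above it.

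**Figure D1:**
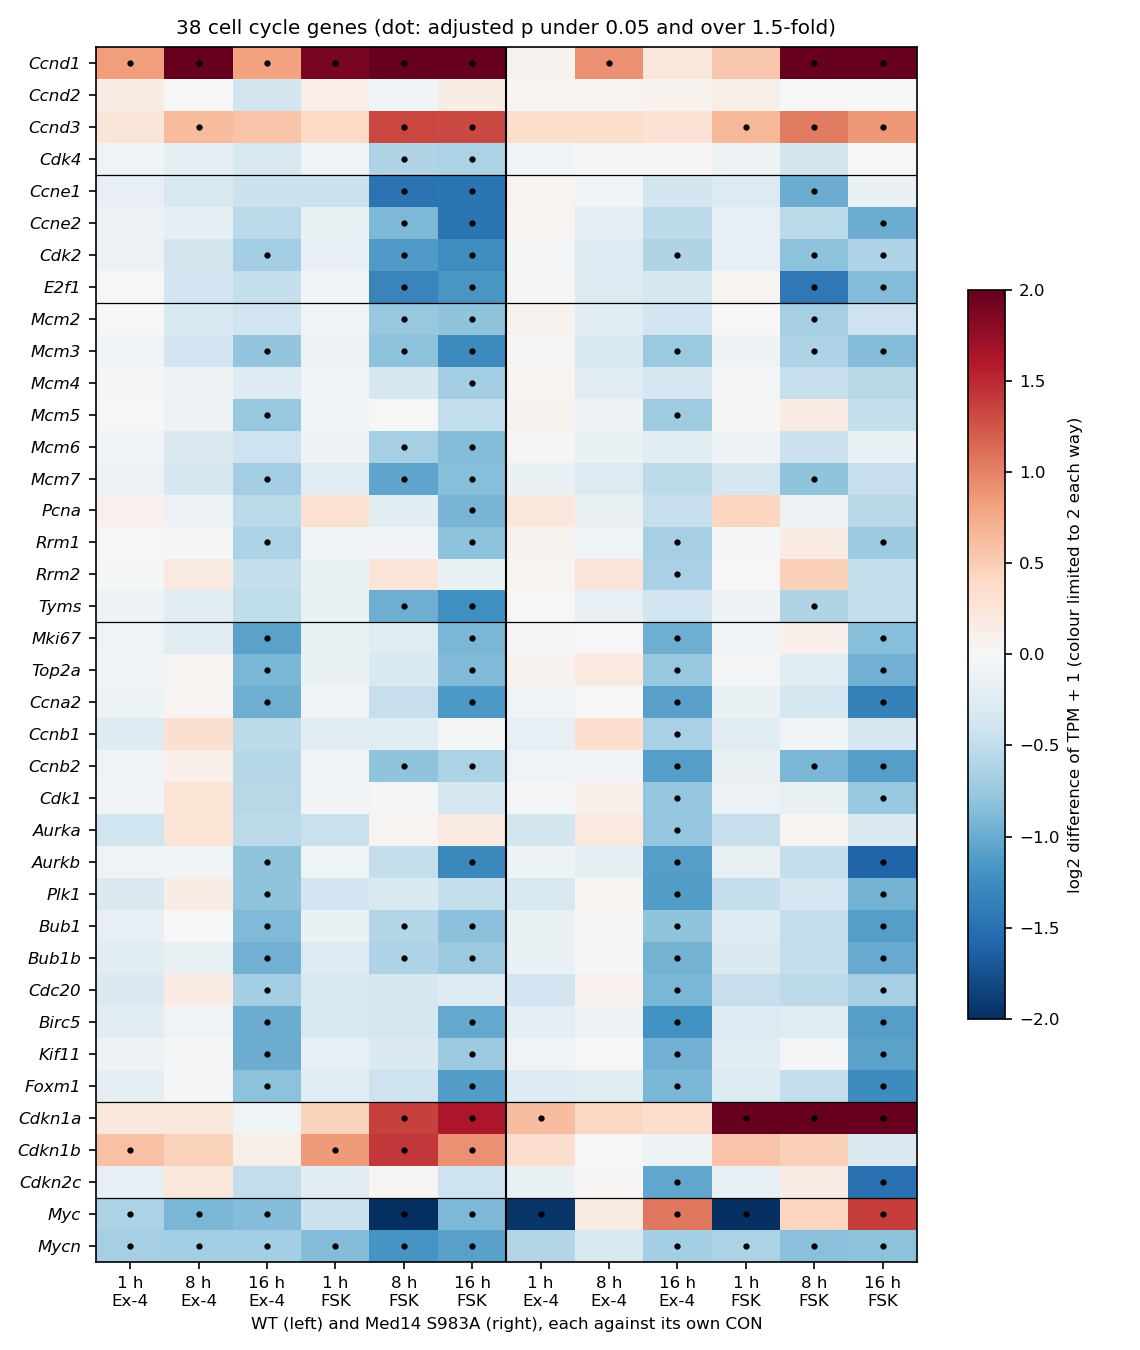
Log2 difference of TPM + 1 from CON of the same genotype for 38 genes (rows, grouped from the top as D cyclins and Cdk4, G1/S, replication, G2 and M, CDK inhibitors, Myc family) in 12 treatment groups (columns); colour is limited to 2 each way and a dot marks a call. In the 15 G2 and M genes the dots gather at 16 h, while the G1/S genes already carry dots at 8 h of FSK.

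These counts depend on the scaling. The ERCC spike-ins, synthetic RNAs mixed into a set amount of each RNA sample, give a scale per mass of RNA, and on it the median of all genes moved from -0.16 to 0.15 for 16 h of Ex-4 in WT, from -0.20 to 0.16 for 16 h of FSK in WT, and from -0.10 to 0.12 for 16 h of FSK in Med14 S983A. It went the other way, from -0.06 to -0.16, for Med14 S983A given Ex-4 for 16 h. The ERCC factors that divided TPM in that group were 1.14 in the first library and 0.962 in the second. At CON of Med14 S983A they were 0.988 and 0.95, so this shift rests mainly on the first library. On the ERCC scale, 5 members fell and 2 rose at 16 h of Ex-4 in WT (all genes, 2.61% and 9.75%), and 11 fell and 4 rose at 16 h of FSK in WT (all genes, 11.4% and 22.1%). In Med14 S983A given Ex-4 for 16 h 24 fell and 1 rose (all genes, 10.1% and 3.67%), and with FSK 16 fell and 4 rose (all genes, 13.8% and 20.4%). With each library centred on the median gene, the falls at 16 h numbered 12, 18, 21 and 17 in the same order, with 2, 4, 1 and 4 rises. The shares of all genes were then 3.96%, 14.4%, 5.8% and 15.7% lower and 6.47%, 16.8%, 5.58% and 17.1% higher. At 8 h of FSK the centring left 6 falls beside 5 rises in WT (all genes, 18% and 18.8%) and 2 falls beside 6 rises in Med14 S983A (21.5% and 21.7%), and at 1 h of FSK in Med14 S983A it gave 1 fall and 5 rises (4.14% and 4.22%).

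D-type cyclins pair with Cdk4 and Cdk6 early in G1. Ccnd1 (cyclin D1, chr1:218090750-218100272 in rn6, minus strand) was at 0.5 and 0.36 TPM in the 2 WT CON libraries. It stood at 4.83 and 3.9 TPM after 1 h of FSK, 57.1 and 57.6 TPM after 8 h and 23.3 and 21.8 TPM after 16 h. The 8 h level was 133 times the CON level (95% counting interval 107 to 166) and the difference was 5.35 ± 0.083 (SE, n = 2 against 2, limma adjusted p = 1.7e-25). Ex-4 raised it far less, to 1.61 and 1.5 TPM at 1 h, 4.71 and 4.69 TPM at 8 h and 1.43 and 1.55 TPM at 16 h. No treated WT library overlapped the CON libraries.

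In Med14 S983A cells Ccnd1 started lower, at 0.071 and 0.086 TPM, which is 7.5 and 9 recovered fragments. With FSK it stood at 0.532 and 0.594 TPM at 1 h, which was not called on TPM, and rose to 54.3 and 52 TPM at 8 h and 19.2 and 19 TPM at 16 h. The 8 h level was near that of WT, and its ratio to CON was 677 (95% counting interval 411 to 1129, which covers counting error only). After Ex-4, of which only 8 h gave a call on TPM, it was at 0.165 and 0.098 TPM at 1 h, 1.15 and 0.916 TPM at 8 h and 0.309 and 0.207 TPM at 16 h, all at or under 1.15 TPM. On the log2(TPM + 1) scale the response to 8 h of Ex-4 differed from that in WT by -1.08 ± 0.12 (interaction, adjusted p = 3.6e-07). As ratios to CON the levels rose 10.9-fold in WT and 13.2-fold in Med14 S983A, and the interaction on recovered fragments was 0.20 by edgeR (adjusted p = 0.78) and 0.16 by DESeq2 (adjusted p = 0.95). By both tools on recovered fragments 1 h of FSK and 16 h of Ex-4 were also called higher in Med14 S983A.

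Ccnd2 (cyclin D2, chr4:159674885-159697207, minus strand), the D-type cyclin best known from beta cell growth in rodents, separated the genotypes completely. WT libraries held 36.3 to 54.0 TPM of it, with 49.9 and 46.8 TPM at CON. All 14 Med14 S983A libraries lay between 0.023 and 0.194 TPM, which is 1 to 8 fragments each. At CON, 3562 fragments in WT stood against 4 in Med14 S983A, a ratio of 939 in mean TPM with a 95% counting interval of 367 to 3454 (difference -5.55 ± 0.072, adjusted p = 5.8e-27). Ccnd2 was called in none of the 12 treatment comparisons by limma, of which 16 h of Ex-4 in WT was the largest (-0.37 ± 0.072, adjusted p = 9e-05). At the levels in Med14 S983A no fall could have passed the fold limit, so only the WT comparisons could show one.

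Ccnd3 (cyclin D3, chr9:15404865-15410895) was the most abundant D-type cyclin at CON, with 75.2 and 70.7 TPM in WT and 66.9 and 72.2 TPM in Med14 S983A. FSK took it to 186 and 186 TPM at 8 h in WT and 148 and 139 TPM in Med14 S983A (differences 1.34 ± 0.045 and 1.04 ± 0.045). On unscaled TPM Ex-4 gave a called rise only in WT at 8 h, to 114 and 113 TPM (0.63 ± 0.045), and the interaction at that time was -0.28 and not called. That rise fell to 0.58, under the fold limit, without the second WT CON library. At 16 h of Ex-4 in WT it was at 0.57 and not called on TPM, but was called higher with centring (0.76), on the ERCC scale (0.90), with edgeR (0.73) and with DESeq2 (0.90). Their kinase partner Cdk4 fell in WT at 8 and 16 h of FSK, from 585 and 599.8 TPM to 397 and 386 and 382 and 383 TPM. The 8 h call was lost without the second library of WT CON (-0.58) or of 8 h of FSK (-0.58). It was also lost with centring (-0.21), on the ERCC scale (-0.58), with edgeR (-0.28) and with DESeq2 (-0.58), and the 16 h call was lost in the same 4 (-0.39, -0.23, -0.45 and -0.23). In Med14 S983A it was at 782 and 770.1 TPM at CON and 759.9 and 779.6 TPM after 16 h of FSK.

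**Figure D2:**
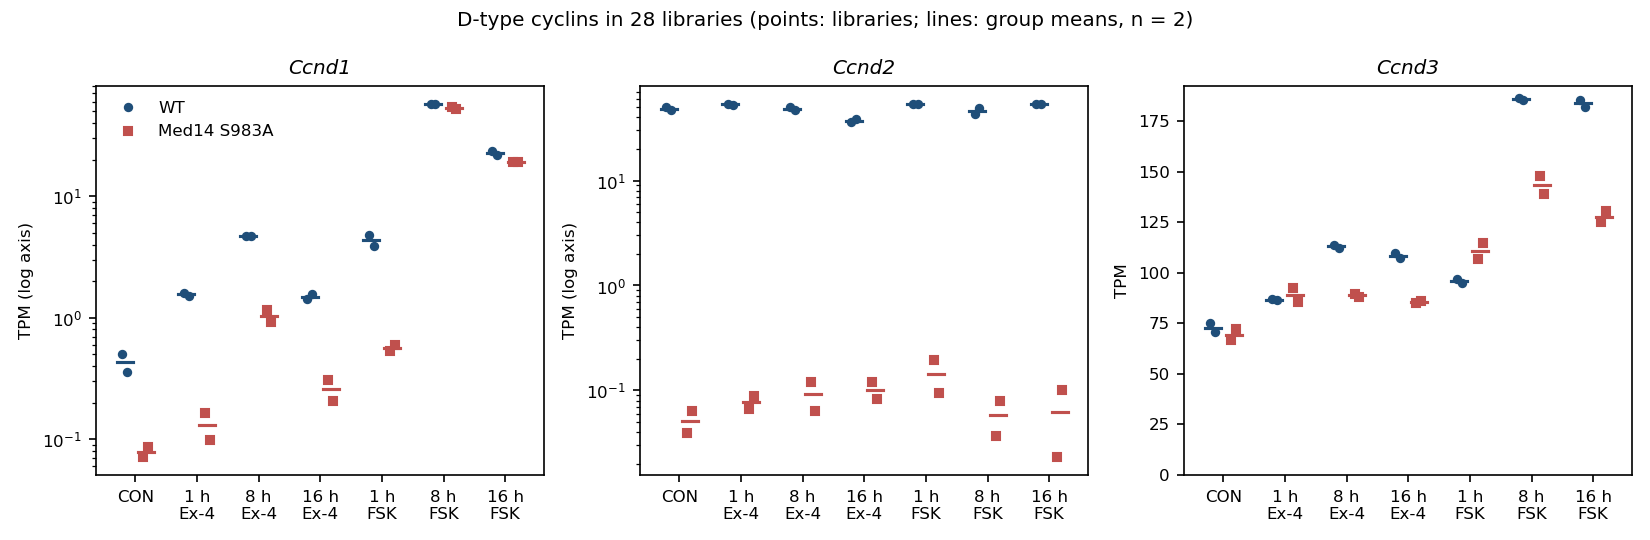
Levels of the 3 D-type cyclins in TPM (log axes for Ccnd1 and Ccnd2, linear from 0 for Ccnd3) in each library of 14 groups; circles are WT, squares Med14 S983A, lines group means of n = 2. Ccnd1 meets at 52.0 to 57.6 TPM in both genotypes after 8 h of FSK, and Ccnd2 lies below 0.2 TPM in every Med14 S983A library.

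The E-type cyclins Ccne1 and Ccne2, their kinase Cdk2 and the factor E2f1 act at entry into S phase. All 4 fell in WT after 8 h of FSK (background 34.8%) and all 4 fell at 16 h (background 24.1%), also on the ERCC scale, while Ccne2 lost its 8 h call with centring (-0.50). Ccne1 went from 60.3 and 59.3 TPM at CON to 20.4 and 21.1 TPM at 8 h and 20.7 and 21.7 TPM at 16 h (-1.48 ± 0.046 and -1.46 ± 0.046). E2f1 went from 31.7 and 31 to 12.7 and 11.2 and then 13.3 and 13.6 TPM. On TPM, Ex-4 left 3 of these 4 genes short of a call at every time in WT and in Med14 S983A, and Cdk2 alone fell at 16 h, with differences of -0.69 in WT and -0.61 in Med14 S983A. The knock-in call was lost at -0.58 without the first CON library, with centring (-0.55) and with edgeR (-0.58), and the WT call was lost on the ERCC scale (-0.36), with centring (-0.50), with edgeR (-0.56) and with DESeq2 (-0.38). Ccne2, at -0.52 on TPM in Med14 S983A given Ex-4 for 16 h, was called lower on the ERCC scale (-0.63) and with DESeq2 (-0.65).

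Ccne1 behaved differently in Med14 S983A cells after longer FSK. It fell from 43.9 and 41.2 TPM at CON to 20.8 and 21 TPM at 8 h, but stood at 38.2 and 39.4 TPM at 16 h, a rise of 0.86 between the 2 times. The interaction at 16 h was 1.33 ± 0.065 (adjusted p = 1.5e-14) and was called under each scaling and tool tried. The same direction was called for Tyms (0.75 ± 0.087), Mcm6 (0.72 ± 0.052), Cdk2 (0.63 ± 0.069) and Cdk4 (0.62 ± 0.043). Of these only Tyms kept the call under each scaling and tool: on the ERCC scale Mcm6 was at 0.56, Cdk2 at 0.49 and Cdk4 at 0.46.

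Replication genes comprise the Mcm2 to Mcm7 subunits of the replicative helicase, the sliding clamp Pcna, the ribonucleotide reductase subunits Rrm1 and Rrm2, and Tyms, which makes thymidylate. Their promoters and those of the mitotic genes are known for different elements, and a few of each are shown because both groups moved in these data. RefSeq promoters of build GRCr8 (300 bases, from 250 before to 50 after the start) matched 27 members. The motifs searched on both strands were the E2F-type words TTTCCCGC, TTTGGCGC, TTTCGCGC and TTTGCCGC, the CHR core TTTGAA, the CCAAT box CCAAT and the CRE TGACGTCA with its shorter core TGACG, which every CRE also holds. An E2F word was found in 6 of 8 replication promoters and 1 of 12 G2 and M promoters, against 2.14% of all 33469 promoters. A CHR core was found in 8 of 12 G2 and M promoters and 1 of 8 replication promoters, against 18.3% of all. A CHR core and a CCAAT box together were in 7 of 12 G2 and M promoters and 0 of 8 replication promoters, against 7.41% of all. CCAAT boxes were in 6 of 8 replication and 9 of 12 G2 and M promoters, against 37.5%. The CRE was in 1 of 27 (Mcm5), against 1.83%, and the shorter core in 10 of 27, against 21.2%. Capitals below mark CHR cores, CCAAT boxes and E2F words on either strand. Mcm3 (chr9:30733697-30733996, minus strand) and Mcm7 (chr12:22163129-22163428, minus strand) are given for replication, Cdk1 (chr20:19265043-19265342, plus strand), Plk1 (chr1:186147408-186147707, plus strand) and Top2a (chr10:84473044-84473343, minus strand) for G2 and M.
Mcm3: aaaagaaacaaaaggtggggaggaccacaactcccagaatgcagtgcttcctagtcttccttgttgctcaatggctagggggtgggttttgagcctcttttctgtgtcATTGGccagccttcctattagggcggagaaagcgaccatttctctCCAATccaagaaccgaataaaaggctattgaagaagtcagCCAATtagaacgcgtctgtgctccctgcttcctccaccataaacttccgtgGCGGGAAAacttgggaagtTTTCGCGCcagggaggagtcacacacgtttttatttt
Mcm7: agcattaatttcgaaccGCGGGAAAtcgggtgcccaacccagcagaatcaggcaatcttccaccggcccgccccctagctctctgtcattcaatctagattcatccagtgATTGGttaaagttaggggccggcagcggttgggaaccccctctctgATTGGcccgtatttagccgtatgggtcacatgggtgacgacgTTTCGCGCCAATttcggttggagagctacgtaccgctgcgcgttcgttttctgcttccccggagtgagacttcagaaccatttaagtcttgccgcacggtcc
Cdk1: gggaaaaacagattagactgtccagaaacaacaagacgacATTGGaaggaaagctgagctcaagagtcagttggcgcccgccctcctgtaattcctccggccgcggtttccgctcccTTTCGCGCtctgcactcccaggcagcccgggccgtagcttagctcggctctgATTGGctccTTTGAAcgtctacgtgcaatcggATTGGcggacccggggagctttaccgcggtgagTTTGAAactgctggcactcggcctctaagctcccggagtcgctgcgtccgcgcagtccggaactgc
Plk1: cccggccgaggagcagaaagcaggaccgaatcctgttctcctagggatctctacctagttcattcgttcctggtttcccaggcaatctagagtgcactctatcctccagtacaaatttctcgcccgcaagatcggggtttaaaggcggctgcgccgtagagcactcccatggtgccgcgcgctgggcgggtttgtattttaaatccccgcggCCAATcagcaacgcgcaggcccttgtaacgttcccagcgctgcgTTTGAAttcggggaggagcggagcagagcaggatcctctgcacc
Top2a: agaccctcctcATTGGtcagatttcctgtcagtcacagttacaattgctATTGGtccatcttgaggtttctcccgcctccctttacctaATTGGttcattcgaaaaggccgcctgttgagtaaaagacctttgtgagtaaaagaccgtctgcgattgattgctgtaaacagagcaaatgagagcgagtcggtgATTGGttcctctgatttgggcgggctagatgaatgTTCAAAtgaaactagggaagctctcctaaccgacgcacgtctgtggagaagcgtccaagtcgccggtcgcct
Mcm3 and Mcm7 each hold 2 E2F words and no CHR core. In Plk1 and Top2a the single CHR core begins 6 bases after and 22 bases before the start, and Cdk1 is the one G2 and M member with an E2F word as well. In Mcm7 the second E2F word and the last CCAAT box share letters. Ccnd1, Ccnd2, Ccne2, E2f1, Mcm4, Rrm2, Ccna2, Aurkb, Foxm1, Myc and Mycn were not matched.

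The summed level of the 10 replication genes was 2012 ± 6.86 TPM in WT CON (SD, n = 2). It was 1568 ± 14.1 TPM after 8 h of FSK, 1113 ± 29.1 TPM after 16 h of FSK and 1374 ± 25.9 TPM after 16 h of Ex-4. The sums in Med14 S983A were 1807 ± 71.9 TPM at CON, 1548 ± 10.0 TPM after 8 h of FSK, 1270.5 ± 4.64 TPM after 16 h of FSK and 1299 ± 9.05 TPM after 16 h of Ex-4. By gene, 5 of 10 fell at 8 h and 8 of 10 at 16 h of FSK in WT, against 4 and 2 of 10 in Med14 S983A (background 34.8% and 24.1% in WT, 34.5% and 21.1% in Med14 S983A). Ex-4 for 16 h lowered 4 of 10 in each genotype (background 8.28% and 7.15%). Of the knock-in calls, Tyms at 8 h of FSK (-0.54) and Rrm1 at 16 h of Ex-4 (-0.58) were lost without the first CON library, and Tyms also without the second library of 8 h of FSK (-0.56). The median over the 10 genes at 16 h of FSK was -0.84 in WT and -0.48 in Med14 S983A (all genes, -0.20 and -0.10). On the ERCC scale 2 of 10 fell in WT and 1 in Med14 S983A at that time (all genes, 11.4% and 13.8%), and 0 and 5 at 16 h of Ex-4 (all genes, 2.61% and 10.1%).

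Of the 10 replication genes, Mcm3 had the largest fall at 16 h of FSK in WT, from 99.8 and 102 TPM at CON to 39.5 and 42.6 TPM (-1.27 ± 0.04). Tyms, the target of fluoropyrimidine drugs, followed with 20.3 and 21.1 TPM, down from 52.1 and 47.8 TPM (-1.23 ± 0.062). Mcm7 reached its lowest level sooner, at 102 and 96.1 TPM after 8 h of FSK against 208 and 206 TPM at CON. Mcm4, Mcm5, Rrm1, Rrm2 and Pcna were not called at 8 h of FSK in either genotype on TPM. Pcna then fell to 372 and 388 TPM at 16 h in WT from 718 and 739 TPM, having stood at 888 and 911 TPM after 1 h (0.30 ± 0.035, under the fold limit). This 16 h call was lost on the ERCC scale and with DESeq2 (both -0.54). Against CON, Rrm2 was called once on TPM, lower after 16 h of Ex-4 in Med14 S983A (27.3 and 24.8 TPM against 43 and 40.1 TPM).

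The 15 G2 and M genes are the mitotic cyclins Ccna2, Ccnb1 and Ccnb2 with their kinase Cdk1, the Aurora and Polo kinases Aurka, Aurkb and Plk1, the spindle checkpoint genes Bub1 and Bub1b, the anaphase activator Cdc20, the motor Kif11, survivin (Birc5), topoisomerase Top2a, the proliferation marker Mki67 and the factor Foxm1. After Ex-4 for 16 h, 11 of 15 fell in WT and 15 of 15 in Med14 S983A (background 8.28% and 7.15%), with medians of -0.82 and -0.94. With FSK at 16 h, 10 of 15 and 13 of 15 fell (background 24.1% and 21.1%), with medians of -0.74 and -1.01. None rose in any of these. The count of 15 was 14 without the first CON library, where Ccnb1 was at -0.58. Scaled on ERCC, the falls were 5, 15, 4 and 11 of 15, in the order in which these 4 comparisons are given, against 2.61%, 10.1%, 11.4% and 13.8% of all genes.

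At 8 h the group looked unlike that. After 8 h of Ex-4, 0 of 15 were called in either genotype by limma and the summed level was 2222 ± 39.1 TPM in WT (SD, n = 2), above 2066 ± 26.6 TPM at CON. After 16 h it was 1208 ± 22.4 TPM. In Med14 S983A the sums were 1920 ± 42.7 TPM at CON, 1992 ± 19.7 TPM at 8 h and 1007.5 ± 19.6 TPM at 16 h. FSK gave 1680 ± 48.0 TPM at 8 h and 1363 ± 33.3 TPM at 16 h in WT, and 1573.5 ± 23.8 and 1017 ± 8.48 TPM in Med14 S983A. Bub1, Bub1b and Ccnb2 were called lower at 8 h of FSK in WT and Ccnb2 in Med14 S983A (background 34.8% and 34.5%, above the share of this group). With centring none of these was called. Bub1 also lost its call without the first WT CON library (-0.58) or without the second library of 8 h of FSK (-0.51).

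**Figure D3:**
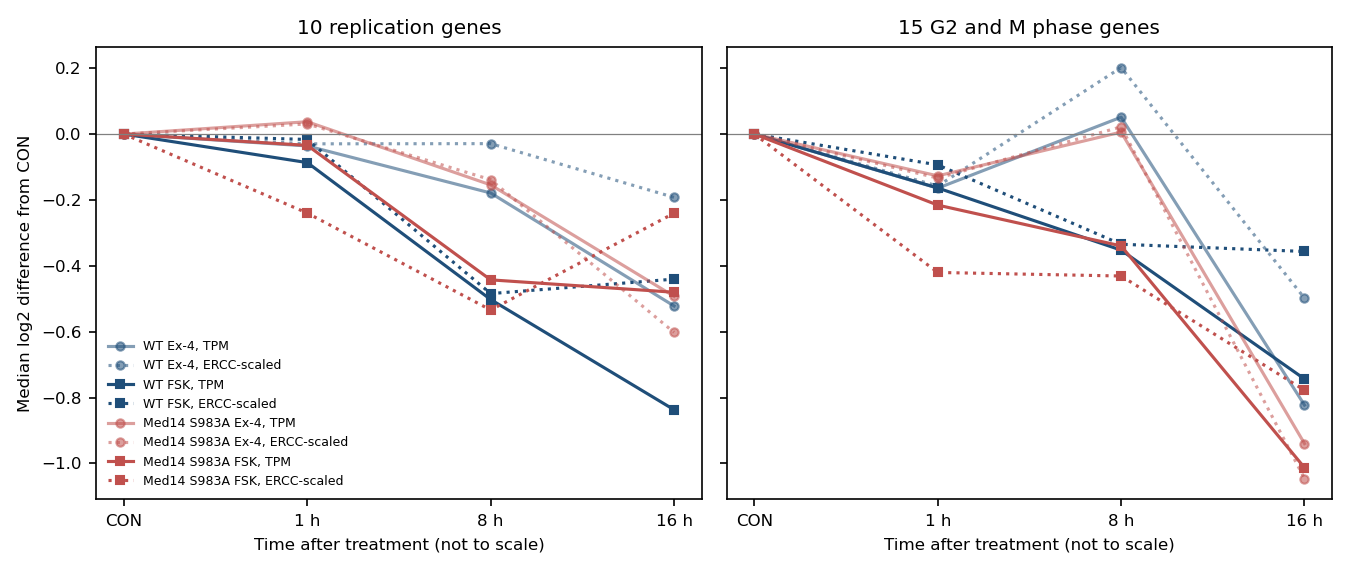
Median log2 difference from CON over 10 replication genes and 15 G2 and M genes by time (not to scale), agent and genotype, from TPM (solid) and from ERCC-scaled TPM (dotted). The G2 and M medians of Ex-4 lie near 0 at 8 h and between -0.82 and -0.94 at 16 h on TPM, and the dotted WT lines end higher than the solid ones.

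Comparing 16 h with 8 h of the same agent uses no CON library. Cells at 16 h may also have been without serum longer than those at 8 h. Treatment time and time without serum therefore cannot be told apart here either. With Ex-4, all 15 G2 and M genes fell between these times in WT and all 15 in Med14 S983A, and 13 and 15 did on the ERCC scale (all genes lower, 1.78% and 4.37%). Over the 38 members, 20 fell and 0 rose in WT (background 3.49% and 2.08%), and 19 fell and 1 rose in Med14 S983A (background 2.72% and 1.25%). With FSK, 8 fell and 1 rose in WT (background 3.62% and 14%) and 16 fell and 2 rose in Med14 S983A (background 6.4% and 21.5%). On the ERCC scale the FSK counts were 1 down and 2 up in WT (all genes, 1.12% and 36.9%), and 7 down and 8 up in Med14 S983A (all genes, 2.43% and 40.6%). Mki67 lost its FSK call in WT without the first 16 h library (-0.56), and Plk1 lost its own in Med14 S983A without the first 8 h or the second 16 h library (both -0.57). The 2 Ex-4 comparisons were added after the values had been seen.

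Mki67 stood at 72.6 and 72.8 TPM in WT CON, 59.8 and 63.6 TPM after 8 h of Ex-4 and 32.9 and 35.5 TPM after 16 h (-1.07 ± 0.055, adjusted p = 3.2e-14). In Med14 S983A the same groups held 56.9 and 55.5, 58 and 54.8 and 27.8 and 28.6 TPM. In both, 16 h lay clear of the other groups. Plk1 went from 142 and 135 TPM at CON through 149 and 158 TPM at 8 h to 77.9 and 79.4 TPM at 16 h in WT. The knock-in cells went from 143 and 151 TPM through 153 and 148 TPM to 63.6 and 70.2 TPM (-1.12 ± 0.045). Birc5, an inhibitor of cell death that also sits at centromeres, had the largest fall of the 15 G2 and M genes in Med14 S983A given Ex-4 for 16 h, from 135 and 137 to 59.3 and 57 TPM (-1.21 ± 0.037). Aurkb had the largest of the same 15 at 16 h of FSK in both, from 153 and 147 to 60 and 61 TPM in WT (-1.29 ± 0.038) and from 155 and 153 to 50.8 and 49.2 TPM in Med14 S983A (-1.61 ± 0.038).

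Aurka, Ccnb1, Cdc20, Cdk1 and Plk1 were not called at 16 h of FSK in WT. Ccnb1 was at 133 and 129 TPM in WT CON and 127 and 131 TPM after 16 h of FSK (-0.02 ± 0.04), and at 89.1 and 91.8 TPM after 16 h of Ex-4. Aurka was at 62.5 and 62.1 TPM in WT CON, 70.5 and 70.4 TPM after 16 h of FSK and 41.8 and 44.1 TPM after 16 h of Ex-4. Aurka was also the G2 and M gene for which the 2 agents differed by a call at 16 h in WT (Ex-4 minus FSK, -0.70 ± 0.047). Ccnb2 lies in the table at chr1:21145356-21146846 over a stretch as long as its exons, so without introns, and its reads may be shared with another copy of the gene. Its values are uncertain for that reason.

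Ex-4 was also set against FSK at 16 h, and on TPM only the members lower in WT exceeded the background share. In WT, 4 members were higher with Ex-4 and 5 lower (background 11.4% and 7.29%). Ccne1 (1.02), Ccne2 (0.91), Tyms (0.72) and E2f1 (0.69) were higher with Ex-4, while Ccnd1, Ccnd3, Cdkn1a, Cdkn1b and Aurka were lower. In Med14 S983A, 0 were higher and 2 lower (background 10.6% and 5.76%), namely Ccnd1 (-4.0) and Cdkn1a (-2.24). On the ERCC scale that second count was 8 lower (all genes, 20%).

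The CDK inhibitors did not move as a group. Cdkn1a (p21, chr20:6348422-6358864), a p53 target that blocks Cdk2, was at 25.1 and 23 TPM in WT CON and 6.3 and 5.99 TPM in Med14 S983A CON (-1.81 ± 0.06, adjusted p = 7e-19). FSK for 1 h gave 32.5 and 34.1 TPM in WT and 27.7 and 30 TPM in Med14 S983A. At 16 h the levels were 73.6 and 78.8 TPM and 43.4 and 40.8 TPM, a ratio to CON of 3.17 in WT and 6.85 in Med14 S983A. Within each treatment, Med14 S983A libraries lay below WT libraries, while the response was larger by 1.61 ± 0.084 at 1 h, 0.89 ± 0.084 at 8 h and 0.97 ± 0.084 at 16 h. Ex-4 gave one call, in Med14 S983A at 1 h (10.2 and 9.73 TPM, 0.62 ± 0.06), which was at 0.585 and at the fold limit without the second CON library.

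Cdkn1b (p27, chr4:168689163-168693964), which binds cyclin and CDK complexes in G1, rose in WT with FSK from 127 and 125 TPM to 232 and 224 TPM at 1 h, 343 and 331 TPM at 8 h and 238 and 236 TPM at 16 h. In Med14 S983A the levels were 49.9 and 47.4 TPM at CON, 70.7 and 74.1 TPM at 1 h, 67.7 and 68.6 TPM at 8 h and 39.1 and 39.9 TPM at 16 h, with no call on TPM. With centring it was called higher in Med14 S983A at 1 h (0.71) and 8 h (0.81). The interaction was -0.94 ± 0.054 at 8 h and -1.20 ± 0.054 at 16 h. After 1 h of Ex-4 it rose in WT to 187 and 194 TPM (0.59 ± 0.038), a call lost without the second WT CON library (0.58) or without the second Ex-4 library (0.57).

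Cdkn2c (p18, chr5:129347732-129352886), is an inhibitor of Cdk4 and Cdk6. It was higher in Med14 S983A at CON, at 98.3 and 98.8 TPM against 61 and 58 TPM in WT (0.72 ± 0.044). After 16 h it had fallen in Med14 S983A to 47.5 and 47.6 TPM with Ex-4 and 33.7 and 34.7 TPM with FSK. In WT it was at 42.3 and 41.5 and 42.7 and 45.9 TPM, with differences of -0.49 and -0.42 that were under the fold limit. The interaction was -1.08 ± 0.062 for FSK at 16 h (adjusted p = 3.1e-13) and -0.54 ± 0.062 for Ex-4, which was not called on TPM but was called with centring (-0.67) and on the ERCC scale (-0.98).

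Myc (chr7:102586313-102591239), a growth factor-responsive transcription factor that drives entry into the cycle, had the largest interactions of the members. In WT it was at 69.4 and 70.5 TPM at CON and lower in all 6 treated groups, at 45.5 and 43.8 TPM after 1 h, 35.6 and 37.4 TPM after 8 h and 36.2 and 39.7 TPM after 16 h of Ex-4. FSK gave 52 and 51.5 TPM at 1 h, which is not called (-0.43 ± 0.047), 12.9 and 13.7 TPM at 8 h (-2.31 ± 0.047) and 36.5 and 37.8 TPM at 16 h. The WT calls at 16 h were lost on the ERCC scale (-0.54 with Ex-4 and -0.50 with FSK) and that at 1 h of Ex-4 with centring (-0.56). Med14 S983A cells began at 55.5 and 56.5 TPM and fell at 1 h, to 14.2 and 13.5 TPM with Ex-4 (-1.94 ± 0.047) and 5.26 and 5.6 TPM with FSK (-3.15 ± 0.047). They were at 63.6 and 63.6 and 76.9 and 75.2 TPM at 8 h, and then above CON at 16 h, with 115 and 119 TPM (1.05 ± 0.047) and 146 and 148 TPM (1.38 ± 0.047).

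The Myc interactions therefore changed sign with time. They were -1.30 and -2.72 at 1 h of Ex-4 and FSK, 1.10 and 2.75 at 8 h, and 1.91 and 2.27 at 16 h. All 6 were called, under each scaling and each tool, with adjusted p of at most 1.8e-11 by limma. Mycn, a relative of Myc found mainly in embryonic and neuroendocrine cells, was low, at 2.28 and 2.19 TPM in WT CON and 1.82 and 2 TPM in Med14 S983A CON. It fell on TPM in all 6 WT comparisons and in 4 of 6 in Med14 S983A, to as little as 0.261 TPM, or 20 fragments. The WT calls for Ex-4 were lost at 8 h with centring (-0.56) and on the ERCC scale (-0.57), and at 16 h likewise (-0.49 and -0.48). Those for FSK in Med14 S983A were lost with centring at 1 h (-0.49) and 8 h (-0.50). In Med14 S983A 1 h of Ex-4, at -0.58 on TPM, was called lower on the ERCC scale (-0.60), with edgeR (-0.99) and with DESeq2 (-1.03).

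**Figure D4:**
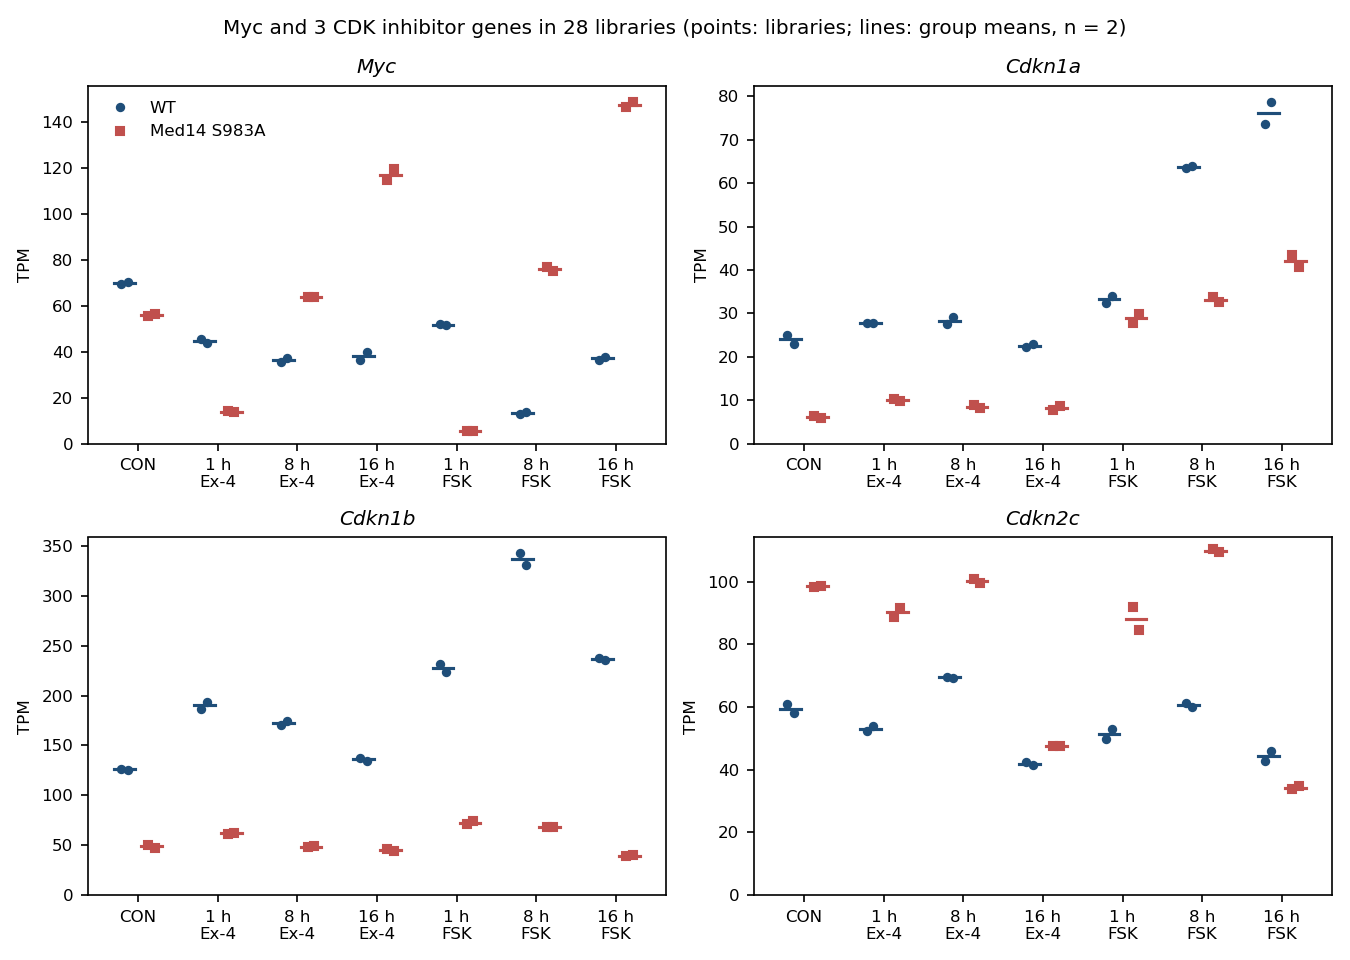
Levels in TPM (linear axes from 0) of Myc, Cdkn1a, Cdkn1b and Cdkn2c in each library of 14 groups; circles are WT, squares Med14 S983A, lines group means of n = 2. Myc in Med14 S983A runs from 5.26 TPM at 1 h of FSK to 148 TPM at 16 h, and Cdkn1b rises with FSK in WT to 343 TPM at 8 h.

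The responses of the genotypes were compared by the interaction of genotype and treatment. Here too, an effect of S983A and a difference between a clone and its parent population cannot be told apart. Of 38 members, 0 were called higher and 2 lower at 1 h of Ex-4 (background 0.341% and 0.331%), 1 higher and 2 lower at 1 h of FSK (background 0.876% and 0.769%), and 1 higher and 1 lower at 8 h of Ex-4 (background 1.98% and 0.798%). At 8 h of FSK 2 were higher and 1 lower (background 7.65% and 6.21%). At 16 h the counts were 1 higher and 0 lower with Ex-4 (background 5.43% and 1.81%) and 7 higher and 2 lower with FSK (background 10.6% and 6.4%). The pair at 1 h was added after the values had been seen. Myc and Ccnd1 made up the calls at 1 h of Ex-4, and with Cdkn1a those at 1 h of FSK. The 2 Ccnd1 calls were not made by edgeR or DESeq2. On uncentred TPM with all libraries, limma called none of the 15 G2 and M genes in the 6 interactions. Ccnb2, at -0.54 for 16 h of Ex-4, was called lower with centring (-0.67), with edgeR (-0.66), with DESeq2 (-0.996), without the first WT library of 16 h of Ex-4 (-0.62) and without the second of Med14 S983A (-0.61).

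The count also turns on the ERCC scale. On it, 12 members were lower and 1 higher in the interaction at 16 h of Ex-4 (all genes, 16.6% and 1.34%), and 7 of the 12 were G2 and M genes, namely Aurka, Aurkb, Birc5, Ccnb2, Cdc20, Cdk1 and Plk1. DESeq2 with ERCC size factors on recovered fragments called 12 members in that comparison. The interaction at 16 h of FSK became 4 higher and 6 lower on the ERCC scale (all genes, 6.88% and 10.3%). Over all genes the median interaction for 16 h of Ex-4 was 0.09 on TPM and -0.33 on the ERCC scale, and the median over the 15 G2 and M genes was -0.13 and -0.56. The libraries of Med14 S983A at 16 h of Ex-4 had unlike ERCC factors, 1.14 and 0.962, which limits these ERCC values.

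**Figure D5:**
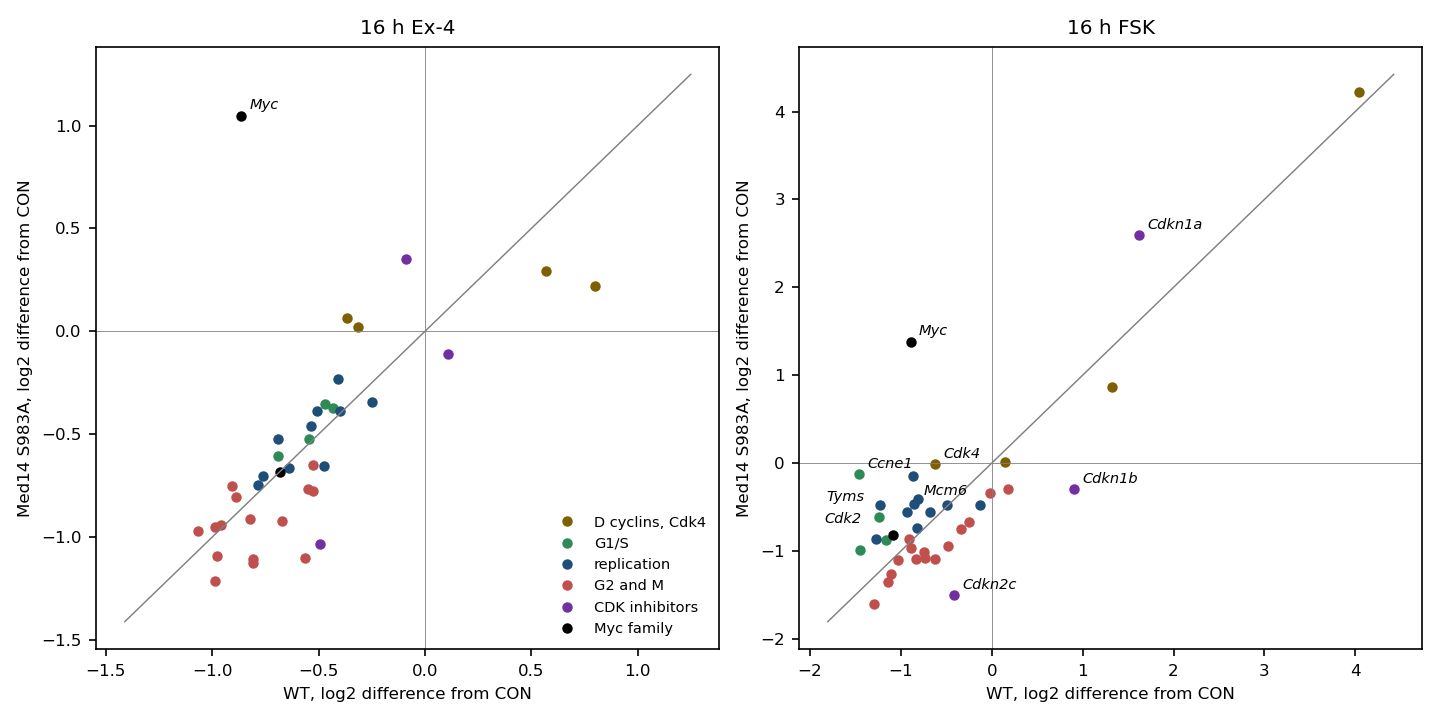
Log2 difference from CON at 16 h in WT (horizontal) and in Med14 S983A (vertical) for 38 genes, with Ex-4 on the left and FSK on the right; colours mark roles, the grey diagonal is an equal response, and named genes have a called interaction on TPM. Myc lies in the upper left of both panels, and the G2 and M genes lie below 0 in Med14 S983A in both.

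At CON, 4 members were lower and 1 higher in Med14 S983A than in WT (background 11.1% and 8.29%). Ccnd2, Cdkn1a, Cdkn1b and Foxm1 were the lower ones and Cdkn2c the higher one. Foxm1 (chr4:161685283-161696304) was at 50.3 and 47.3 TPM in WT and 24.3 and 25.5 TPM in Med14 S983A (-0.94 ± 0.068), and its differences at 16 h of Ex-4 were -0.82 ± 0.068 and -0.91 ± 0.068. Ccnd1 was lower by a ratio of 5.48 in mean TPM (95% counting interval 3.15 to 9.61), which on the log2(TPM + 1) scale was -0.41 and under the fold limit, while edgeR (-2.38) and DESeq2 (-2.27) called it. None of the 10 replication genes was called on TPM.

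Position on the chromosome moved with several of these. Ccnd2, Foxm1 and Cdkn1b all lie near the end of chromosome 4. Of the 57 tested genes of chromosome 4 that start beyond 160 Mb, 43 were lower in Med14 S983A at CON and 0 higher, with a median of -0.985, against a median of -0.04 over the 490 tested genes before 160 Mb. Foxm1 and Cdkn1b are in that stretch, and the 50 nearest tested genes of Cdkn1b had a median of -0.98 beside its own -1.35. Ccnd2 starts just before it, and its -5.55 was far beyond the median of its 50 nearest genes, -0.22. Cdkn2c, on chromosome 5, had neighbours with a median of 0.44 beside its own 0.72, and Cdkn1a, on chromosome 20, had neighbours at -0.10 beside -1.81. Chromosome 12 as a whole had a median of -0.42 (131 of 357 genes lower, 4 higher). On chromosomes 5 and 9 the medians were 0.24 and 0.12, with 202 and 129 higher and 47 and 35 lower. Along chromosome 5, windows of 10 Mb before 100 Mb had medians from -0.19 to -0.03. Those from 110 Mb on, where Cdkn2c and Cdc20 lie, had medians from 0.17 to 0.90. The other whole chromosomes had medians from -0.16 to -0.01. Tyms, Mcm4 and Cdc20, not called at CON, had neighbours with medians of 0.73, 0.58 and 0.56. The part of position in these differences was not tested, and the limit of 160 Mb was set after the values had been seen.

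Other genes of the same pathways were described from lists drawn up beside the members. Of 43 other replication genes, 26 fell at 16 h of Ex-4 and 31 at 16 h of FSK in WT, and none rose (background lower 8.28% and 24.1%). In Med14 S983A 18 and 18 fell (background 7.15% and 21.1%). Scaled on ERCC, these falls were 4, 14, 25 and 10, against 2.61%, 11.4%, 10.1% and 13.8% of all genes. Tk1, the thymidine kinase of S phase, fell from 200.05 ± 4.77 to 62.6 ± 1.20 TPM (SD, n = 2) at 16 h of FSK in WT, and the polymerase gene Pola1 from 56.98 ± 0.793 to 18.2 ± 0.184 TPM. Mcm10 (-1.08) and Pole2 (-1.02) had the largest falls with Ex-4. Of 42 other mitosis genes, 31 fell at 16 h of Ex-4 in WT and 37 in Med14 S983A, and 21 and 31 fell at 16 h of FSK, with none rising and the same backgrounds. On the ERCC scale 15, 39, 12 and 21 fell, against 2.61%, 10.1%, 11.4% and 13.8% of all genes. In WT, Kif15 (-1.25) and Cenpf (-1.14) had the largest falls of the list with Ex-4, and Spc25 (-1.60) and Melk (-1.55) with FSK. Between 8 and 16 h of Ex-4, 39 of 42 fell in each genotype (background 3.49% in WT and 2.72% in Med14 S983A).

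Of 25 other G1 control genes, 3 fell at 16 h of Ex-4 in WT (background 8.28%) and 10 fell and 3 rose at 16 h of FSK (background 24.1% and 10.3%). Mxd3, a Myc antagonist family gene of cycling cells, was at 63.2 ± 1.26 TPM in WT CON, 22.9 ± 1.19 TPM after 16 h of Ex-4 and 12.4 ± 2.19 TPM after 16 h of FSK. Mycl, another Myc family gene, went from 22.3 ± 0.468 TPM to 3.804 ± 0.0148 TPM with FSK. E2f7 fell with Ex-4 (-1.10), and Cdk6 (1.13) and Mxd1 (0.97) rose with FSK. Of 17 other p53 target genes, 1 rose and 2 fell with Ex-4 at 16 h in WT (background 3.53% and 8.28%). With FSK 4 rose and 3 fell (background 10.3% and 24.1%), so the falls with FSK were under the background share. Plk3 rose with both (1.06 and 1.85) and Ccng1 with FSK (1.56), while Gadd45a (-1.08 and -0.65) and Xpc (-0.68 and -1.09) fell with both.

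At CON the same lists gave 0 higher and 4 lower of 43 replication genes, 2 and 1 of 42 mitosis genes, 3 and 2 of 25 G1 control genes, and 0 and 6 of 17 p53 target genes (background 8.29% higher and 11.1% lower). Rfc2 (-0.77) and Pole (-0.86) were lower in Med14 S983A, as were Cks2 (-0.74), E2f3 (-1.01), Mxi1 (-0.67), Plk2 (-1.28) and Plk3 (-1.15). Ndc80 (0.90), Cdca8 (0.60), Mycl (0.75) and Cdk6 (0.63) were higher.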

How the data were processed

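RNA of 28 libraries (14 groups of 2) was sequenced as paired ends from a directional kit, with ERCC spike-ins. The authors aligned reads with STAR 2.5.3a to rn6 with the ERCC sequences and computed TPM over RefSeq exons with HOMER 4.11.1, and the deposited table held TPM per transcript and its exon length. The deposited raw counts covered the 92 ERCC sequences. Gene counts, on which the authors ran DESeq2 1.24.0 with ERCC size factors, were not analysed here.

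One transcript per symbol, that of highest mean TPM, was kept (17455 symbols, 1676 transcripts dropped), and the 10275 genes that averaged 1 TPM or more were tested as log2(TPM + 1) with limma 3.58.1 in R 4.3.3, with 1 mean per group, 14 residual degrees of freedom and Benjamini-Hochberg adjustment within each of 25 comparisons. Fold changes on this scale understate those of low genes. Calls needed an adjusted p under 0.05 and a fold above 1.5. Interactions are the Med14 S983A response minus the WT response. TPM times length, scaled per library, gave whole reads in 100% of 114296 values (tolerance 0.05 reads, 20.1% by chance), 2 reads per fragment, and edgeR 4.0.16 and DESeq2 1.42.0 were run on these recovered fragments. Counting intervals cover counting error only. On data simulated for 16 h of FSK in WT (10259 genes), limma recovered 99% of 2-fold and 100% of 3-fold changes with 1 wrong call. The simulation changed 100 genes at each fold, as many up as down. It therefore cannot show how calls depend on scaling or how changes near the 1.5-fold limit fare.

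The members and the other gene lists were chosen with earlier results of these data known. From each other list, the 2 genes that rose most and the 2 that fell most among those called were named for 16 h of Ex-4 and of FSK in WT and for the genotypes at CON. Alternatives were a pseudocount of 0.1, no filter, a mean of at least 5 TPM, no fold limit, median centring, ERCC scaling, a replicate block, edgeR, DESeq2 and leaving out each library. Of the comparisons, 4 (the interactions at 1 h and 16 h against 8 h of Ex-4 in each genotype) were chosen after seeing the data.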

Additional observations from a re-analysis of the deposited data

Results flagged for a closer look

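The response to treatment differed between the genotypes by a called interaction for 10 members, in 20 results (limma, log2 of TPM + 1, Med14 S983A minus WT). Myc gave 6 of them, at -1.30 and -2.72 for 1 h of Ex-4 and FSK, 1.10 and 2.75 for 8 h, and 1.91 and 2.27 for 16 h. Ccnd1 gave -0.77 and -1.37 for 1 h of Ex-4 and FSK and -1.08 for 8 h of Ex-4, and these 3 were not called on recovered fragments by edgeR or DESeq2. Cdkn1a gave 1.61, 0.889 and 0.969 for 1, 8 and 16 h of FSK. Cdkn1b gave -0.935 and -1.20 for 8 and 16 h of FSK, and Cdkn2c gave -1.08 for 16 h. At 16 h of FSK the interaction was 1.33 for Ccne1, 0.752 for Tyms, 0.717 for Mcm6, 0.631 for Cdk2 and 0.617 for Cdk4. With 2 libraries per group no search for single outlying libraries could be made.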

How the results depend on the processing

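Of 247 calls of members over 25 comparisons, DESeq2 with ERCC size factors lost 60 and gained 52, ERCC scaling lost 60 and gained 42, median centring lost 41 and gained 22, edgeR lost 30 and gained 28, and a pseudocount of 0.1 lost 1 and gained 14. No filter lost 0 and gained 0, as did a mean of at least 5 TPM for the members still tested. The cause of these shifts was not tested. Replicate numbers did not pair the libraries (91 pairs of groups, correlation of deviations -0.280 to 0.283, over 0.1 in 17), and a fit with the replicate block changed no count, with 0 calls lost and 0 gained. The 2 values that reversed were the Ccnd1 interaction at 8 h of Ex-4, at 0.203 with edgeR and 0.156 with DESeq2.

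Counts of members called moved by over 1.5 times as follows. At 16 h of Ex-4 in WT (19) they were 7 with ERCC scaling and 8 with DESeq2. At 16 h of FSK in WT (29) they were 15 with either, and at 8 h of FSK in WT (19) 11 with centring. DESeq2 gave 7 at 1 h of FSK in Med14 S983A (4) and 8 for the genotypes at CON (5). The interaction at 16 h of Ex-4 (1) became 3 with a pseudocount of 0.1, 4 with centring, 13 with ERCC scaling, 3 with edgeR and 12 with DESeq2, that at 8 h of Ex-4 (2) became 1 with a pseudocount of 0.1 or edgeR, that at 8 h of FSK (3) became 5 with either, and that at 1 h of Ex-4 (2) became 1 with edgeR or DESeq2. Ex-4 against FSK at 16 h in Med14 S983A (2) became 8 with ERCC scaling or DESeq2. FSK at 16 against 8 h in WT (9) became 15 with centring or edgeR, 3 with ERCC scaling and 5 with DESeq2.

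With no fold limit the counts in WT were 19, 28 and 37 at 1, 8 and 16 h of Ex-4 and 25 and 32 at 1 and 8 h of FSK. Among all 10275 genes, those higher and lower were 524 and 2068, 1789 and 4293, and 1677 and 5380 for Ex-4. For FSK they were 710 and 3828, and 2197 and 6480. In Med14 S983A the counts of members were 15, 24 and 36 for Ex-4 and 28 and 33 at 1 and 8 h of FSK. All genes gave 700 and 1992, 2282 and 2915, and 2529 and 3830 for Ex-4, higher and lower. For FSK they gave 925 and 4463, and 2739 and 5951. Members numbered 28 for the genotypes at CON, 4, 10 and 17 for the interactions at 1, 8 and 16 h of Ex-4, and 5, 23 and 28 for those of FSK. All genes gave 2650 and 4152 at CON, higher and lower. They gave 90 and 69, 1456 and 454, and 2995 and 1322 for the Ex-4 interactions. For those of FSK they gave 299 and 301, 3110 and 2398, and 3688 and 2266. Ex-4 against FSK at 16 h gave 32 members in WT and 25 in Med14 S983A, 16 against 8 h of FSK 32 and 35, and of Ex-4 33 and 33. In the same order, all genes gave 3859 and 3164, 3901 and 2991, 4750 and 2220, 5212 and 2615, 1940 and 3373, and 1803 and 2499.

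Leaving out single libraries lost 18 and gained 24 calls over 2988 values. It moved the counts between 1 and 3 in Med14 S983A given Ex-4 for 1 h (1 without the second CON library), between 1 and 3 for the interaction at 16 h of Ex-4 (3 without the first WT library of 16 h of Ex-4) and between 2 and 4 for Ex-4 against FSK in Med14 S983A (4 without the first library of 16 h of FSK). Depth limits Ccnd2 and untreated Ccnd1 in Med14 S983A, with 1 to 8 fragments and 7.5 to 9 fragments in a library.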

Other observations

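The p53 target genes listed beside the members (17, Cdkn1a not among them) gave 7 interactions called higher and 0 lower at 8 h of FSK, 5 and 0 at 16 h of Ex-4, and 4 and 0 at 16 h of FSK. Of all genes, 7.65%, 5.43% and 10.6% were called higher in these 3 interactions. On the ERCC scale the counts were 4 and 0, 0 and 2, and 3 and 0, against 5.42%, 1.34% and 6.88% of all genes higher and 16.6% lower for Ex-4 at 16 h. Given FSK for 8 h, 7 of 17 rose and 6 fell in Med14 S983A (background 11.6% and 34.5%), against 2 and 8 in WT (background 8.77% and 34.8%).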
